A study of Temnothorax rugatulus with 32 samples.

Results

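The comparison described here sets the fat bodies of 8 old queens against those of 8 young queens of the ant Temnothorax rugatulus, 16 of the 32 RNA libraries of the series. Members were chosen by label: every library whose tissue is fat body, split by the labelled age class. The other 16 libraries are brains of the same queens and enter only where the fat body difference is set against that of the brain. All 16 queens were collected in the field, each library holds the fat body of a separate queen, and neither group carried a treatment or a genetic change. The labels give age as old or young with no age in years, so the groups are age classes and not points on a time scale.

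The fat body is the insect organ that combines tasks of the vertebrate liver and adipose tissue. It stores lipid and glycogen, releases sugar and lipid into the haemolymph, makes yolk proteins and immune proteins, and handles amino acids and toxins. In ants a queen lives far longer than a worker while laying eggs, and her fat body supplies the egg yolk. A dissected fat body also carries oenocytes, which make hydrocarbons and waxes, attached haemocytes, tracheal cells and fragments of neighbouring tissue.

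Transcript abundance was read from counts per contig of a de novo transcript assembly, so an item is a contig and has no position in a genome. Total counts ran from 22798433 to 29614630 in old and from 20658985 to 31200003 in young fat bodies. Of 228763 contigs, 27664 had enough counts to be tested, and these held 95.1% to 98.7% of the counts of each library. Levels are given as CPM, counts relative to the library total after TMM scaling, with mean ± SD over 8 libraries or the lowest, median and highest library. A difference is the log2 of old over young with its SE, and a contig was called at an edgeR adjusted p under 0.05. The median correlation of a library's log2 CPM with those of the other fat bodies lay between 0.67, for young queen Y-102-F, and 0.727, and the first principal component held 12.8% of the variance.

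Names come from best database hits that the authors give for contigs they selected on age in these same libraries. The direction of a gene list is therefore not independent evidence, and genes whose contigs the authors did not select have no name here. Of the tested contigs, 532 had a named hit in an ant, and these are used for the biology. The reads of similar transcripts within a component of the assembly may have been divided among its contigs, so the value of the whole component is given where it differs in outcome.

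The tissue label could be checked only in part. Vitellogenin, hexamerin, arylphorin and apolipophorin, the usual markers of the fat body, were not among the described contigs. Transferrin, an iron-binding protein that the fat body secretes, took 2849.9 ± 1513 CPM without TMM scaling in old and 471 ± 663 in young fat bodies, against 416 ± 153 in old and 302 ± 122 in young brains. Its young fat body libraries ran from 52.4 to 2030.0, a range that held all 8 young brains. Complexin, a protein of synapses whose hit lies outside ants, took 195 ± 50.6 in young and 152 ± 54.2 in old brains, against 0.287 ± 0.143 in young and 1.29 ± 1.48 in old fat bodies, where it reached 4.34. Neuroligin-1-like, a synaptic adhesion protein by name, separated the tissues less, at 208 ± 37.2 in young and 175 ± 29.0 in old brains against 142 ± 29.8 in young and 72.7 ± 14.1 in old fat bodies. Its young brains and young fat bodies overlapped.

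Contigs called higher in old fat bodies included protein henna, S-adenosylmethionine synthase, purine nucleoside phosphorylase, 10 of 28 membrane transporters and the laminin subunits alpha and beta-1. A pair of fatty acyl-CoA reductase contigs, of low level in young queens, was also called higher. The tested reductase contig most abundant in young queens had a negative difference that was not called. Contigs called lower included 5 of 23 ribosomal proteins, 3 of 18 contigs for RNA polymerase and ribosome assembly and 5 of 21 for RNA processing. In all, 179 contigs were called, which is 0.647% of those tested. Of these, 125 were higher in old queens (0.452%) and 54 were lower (0.195%). Named ant hits made up 110 of the calls, 65 higher with 58 different names and 45 lower with 44 different names. Among the 532 named ant hits the share called was 20.7%, with 12.2% higher and 8.46% lower. The counts called in the gene lists are to be read beside these shares, which depend on the authors' selection of contigs on age. An unadjusted edgeR p under 0.05 was found for 97.6% of the 532, against 13.3% of all contigs tested. Of the 532, 209 had positive and 323 negative values, with a median log2 difference of -0.49. In these whole-organ samples, fewer cells of a type and less RNA per cell cannot be told apart.

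The contigs that rose did so by more than the others fell. The 65 named contigs that rose had a median log2 difference of 1.76, and 58 of them exceeded 1. The 45 that fell had a median of -0.77, and 9 of them were under -1. Across all 27664 contigs the median difference was 0.01. The old and young libraries did not overlap for 80 of the 179 called contigs, 52 higher and 28 lower, against 136 (0.492%) of all contigs tested, 84 higher (0.304%) and 52 lower (0.188%). Among the 532 named ant hits they did not overlap for 73 (13.7%), 33 higher (6.2%) and 40 lower (7.52%).

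**Figure D1:**
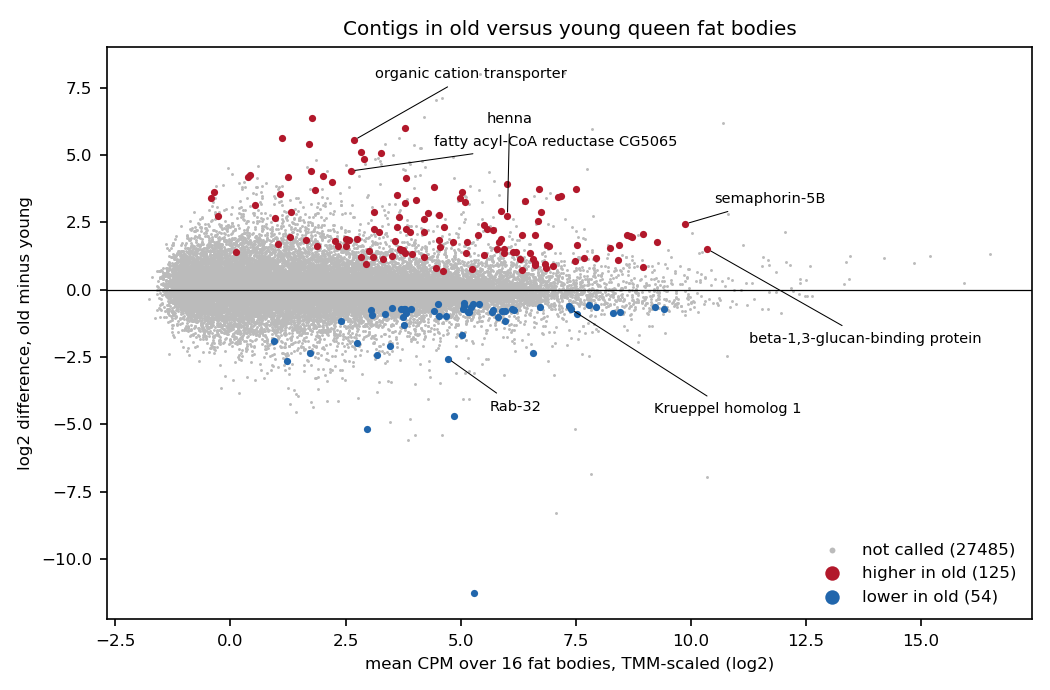
Each point is a contig, with its mean CPM over 16 fat bodies on a log2 axis and its log2 difference, old minus young, on the other. Of 27664 contigs, the 125 called higher in old queens (red) lie mostly above 1, and the 54 called lower (blue) lie mostly between 0 and -1. Grey points were not called.

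The number of calls depended on which queens were included. It fell to 94 without old queen O-189-F, 91 without old queen O-269-F, 87 without old queen O-469-F, 54 without old queen O-603-F, 40 without old queen O-796-F and 98 without old queen O-829-F. It fell to 100 without young queen Y-102-F, 64 without young queen Y-134-F, 106 without young queen Y-361-F, 80 without young queen Y-503-F and 54 without young queen Y-594-F. Smaller falls, to 147 and 120, came without old queen O-482-F and young queen Y-333-F. The number rose to 311 without old queen O-426-F, 215 without young queen Y-453-F and 192 without young queen Y-651-F. Old queen O-426-F was the lowest old library for 29 of the 65 named contigs that rose and the highest old library for 23 of the 45 that fell. Young queen Y-102-F was the lowest young library for 27 of the 65, and young queen Y-453-F was the lowest young library for 18 of the 45. In 19 of the 110 named contigs, 13 higher and 6 lower, the call held in each of the 16 fits that left out 1 queen. In 50 of the 110 it held in at least 8 of these fits. None of the 110 changed direction in those fits.

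The named contig with the smallest p was a putative fatty acyl-CoA reductase CG5065 (TR78257c0_g1_i1, 498 bases), a member of the enzyme family that reduces fatty acids to fatty alcohols, the precursors of waxes. It ran from 4.53 to 20.3 CPM in old fat bodies (median 9.03) and from 0.246 to 1.08 CPM in young ones (median 0.495). Every old library lay above every young one, with a difference of 4.41 ± 0.45 on the log2 scale (SE; edgeR adjusted p = 0.000417). Protein henna (TR26979c0_g2_i1), the hydroxylase that converts phenylalanine to tyrosine, ran from 57.9 to 223 CPM in old fat bodies (median 80.5) and from 10.6 to 31.7 CPM in young ones (median 15.8). Its groups did not overlap either, and the difference was 2.73 ± 0.35 (edgeR adjusted p = 0.00339).

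Choline transporter-like protein 1 brings in choline, a building block of membrane phospholipids, and was represented by a pair of called contigs of the same component. The first (TR73724c0_g1_i1) ran from 34.8 to 141 CPM in old fat bodies (median 87.9) and from 11.1 to 32.1 CPM in young ones (median 18.1), with a difference of 2.20 ± 0.29 on the log2 scale (SE; edgeR adjusted p = 0.00339). The second (TR73724c0_g1_i2) ran from 53.7 to 132 CPM in old fat bodies (median 86.3) and from 25 to 53 CPM in young ones (median 31.3), with a difference of 1.37 ± 0.20 on the log2 scale (SE; edgeR adjusted p = 0.0064). In both contigs all 8 old libraries exceeded all 8 young ones, and the summed component differed by 1.67 (edgeR adjusted p = 0.000465). A carrier of the major facilitator superfamily, domain-containing protein 1-like (TR74178c2_g1_i1), ran from 61 to 180.2 CPM in old fat bodies (median 97.9) and from 29.4 to 53.3 CPM in young ones (median 37.2). Its difference was 1.41 ± 0.20 (edgeR adjusted p = 0.00591), with no overlap, and old queen O-189-F stood well above the other old queens.

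Semaphorin-5B (TR67209c0_g1_i1), of a family of guidance proteins on cell surfaces, was among the most abundant called contigs. It ran from 1051 to 2577 CPM in old fat bodies (median 1533) and from 41.8 to 486 CPM in young ones (median 291), with a difference of 2.44 ± 0.35 on the log2 scale (SE; edgeR adjusted p = 0.00646). The lowest old library lay far above the highest young one. Laminin subunit beta-1 (TR76317c5_g1_i1), a chain of the laminin network of basement membranes, ran from 137 to 579 CPM in old fat bodies (median 243) and from 52.5 to 121 CPM in young ones (median 90.04). The groups were separate, with a difference of 1.68 ± 0.26 on the log2 scale (SE; edgeR adjusted p = 0.0103).

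RNA polymerase I makes the large ribosomal RNA, and its subunit RPA1 (TR31418c0_g1_i1) ran from 359.6 to 618 CPM in old fat bodies (median 423) and from 133 to 272 CPM in young ones (median 221). The difference was 1.11 ± 0.18 (edgeR adjusted p = 0.0124) with no overlap. Myb-like protein AA (TR52390c0_g1_i3) ran from 14.5 to 98.7 CPM in old fat bodies (median 32.3) and from 2.05 to 9.82 CPM in young ones (median 5.74), with a difference of 2.76 ± 0.46 on the log2 scale (SE; edgeR adjusted p = 0.018). Its old libraries were spread more widely than its young ones, yet all lay higher. Protein unc-13 homolog D, which prepares secretory vesicles for release, ran from 70.9 to 139 CPM in old fat bodies (median 100.3) and from 51.4 to 69.3 CPM in young ones (median 59.8), with a difference of 0.74 ± 0.13 on the log2 scale (SE; edgeR adjusted p = 0.0201). Shisa-5-like (0.87 ± 0.15, edgeR adjusted p = 0.018) and xenotropic and polytropic retrovirus receptor 1-like (1.62 ± 0.28, edgeR adjusted p = 0.0228), named after a phosphate exporter, also remained called in each of the fits leaving out a queen, as did unc-13 homolog D.

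A contig named gonadotropin-releasing hormone II receptor (TR73386c1_g2_i5) belongs by name to a receptor family whose insect members bind adipokinetic hormone and corazonin. It ran from 15.7 to 92.5 CPM in old fat bodies (median 26.2) and from 0.689 to 11.2 CPM in young ones (median 3.87), with a difference of 2.86 ± 0.49 on the log2 scale (SE; edgeR adjusted p = 0.0201). Old queen O-469-F was far above the other old queens, and the groups were separate. This contig held 7.52% of the counts of its component, and the component as a whole differed by 0.35 (edgeR adjusted p = 0.6), so the call concerns this contig and not the summed component.

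**Figure D2:**
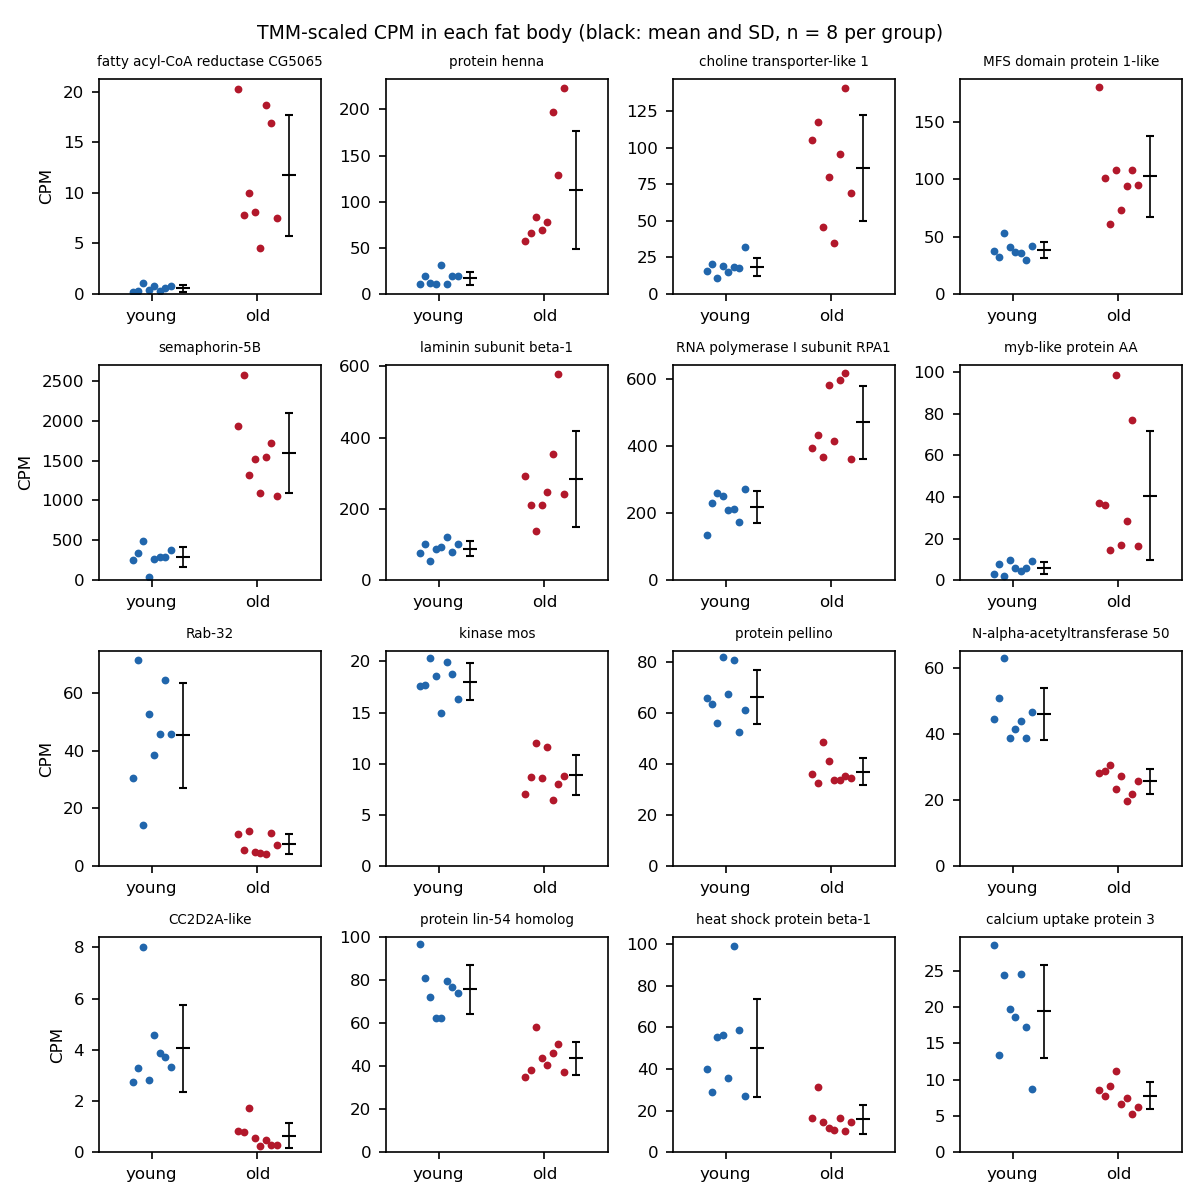
CPM in each library for the 8 named contigs with the smallest p that were higher in old queens (upper 2 rows) and the 8 that were lower (lower 2 rows). Points are single queens, blue for young and red for old, and black marks give mean and SD over 8. Old and young points are separate in all 8 upper panels, and in 6 of the 8 lower panels.

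Genes of fatty acid and wax synthesis moved in both directions. Of 12 tested contigs in this list, 4 rose and 1 fell, against 12.2% higher and 8.46% lower among all named ant hits. The median difference was 1.94. The enzymes act in sequence: fatty acid synthase builds the chain, desaturases and elongases modify it, and the reductases turn it into an alcohol. Fatty acyl-CoA reductase 1-like (TR124789c0_g1_i1) stood at 18.6 ± 9.98 CPM in old against 0.55 ± 0.589 CPM in young queens, a difference of 5.09 ± 0.95 on the log2 scale (SE; edgeR adjusted p = 0.0255). A short fatty acid synthase contig of 459 bases stood at 2.56 ± 0.785 and 0.131 ± 0.235 CPM (4.27 ± 0.92, edgeR adjusted p = 0.0461), and no old library fell below a young one. These are contigs of low level in young queens.

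Contigs named acyl-CoA Delta(11) desaturase-like went opposite ways. The abundant one (TR69629c2_g1_i1) ran from 3.07 to 56.4 CPM in old fat bodies (median 31.7) and from 57.4 to 275 CPM in young ones (median 161), a difference of -2.36 ± 0.51 on the log2 scale (SE; edgeR adjusted p = 0.0463). The rarer one (TR28419c0_g1_i1) stood at 2.6 ± 2 CPM in old against 0.285 ± 0.13 CPM in young fat bodies (3.16 ± 0.66, edgeR adjusted p = 0.0437). Between them the abundant contig was lower in all 8 old queens and the rarer one was higher in old queens with some overlap. Other contigs of the same names were not called: 2 further reductase 1-like contigs had differences of 3.80 and 3.92, another had -2.57, and an elongase of very long chain fatty acids had -2.74 (edgeR adjusted p of 0.0945, 0.122, 0.099 and 0.0524). A pair of contigs named fatty acid synthase-like had -2.99 and -2.53 (edgeR adjusted p = 0.14 and 0.158), with mean levels of 2.83 and 6.41 CPM in young against 0.353 and 1.11 CPM in old queens, opposite in sign to the fatty acid synthase contig that rose.

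Reductases, desaturases and elongases are also markers of oenocytes. The 13 described contigs of that marker list summed to 44.98 to 185.5 CPM in old (median 99.1) and 100.2 to 493 CPM in young fat bodies (median 299.8). The summed level was thus lower in old queens at the median while 3 of its 8 tested contigs rose and 1 fell. The part of oenocyte number in these differences was not tested.

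Genes that break down, store or carry lipid gave no call among 9 tested contigs, although 6 had positive values and the median was 1.76. Monoacylglycerol lipase ABHD12 had the smallest adjusted p of them, 0.0647, at a difference of 2.43. Outside the lists, abhydrolase domain-containing protein 2 (TR70608c1_g1_i3), of the same wide family of hydrolases, rose with a difference of 2.04 ± 0.39 on the log2 scale (SE; edgeR adjusted p = 0.0287). It ran from 272 to 1124 CPM in old fat bodies (median 530.4) and from 46.9 to 383 CPM in young ones (median 132). Young queen Y-651-F reached into the old range. 15-hydroxyprostaglandin dehydrogenase (TR44161c0_g1_i1), which inactivates prostaglandins in mammals, stood at 808 ± 729 CPM in old against 191 ± 87.7 CPM in young queens (2.08 ± 0.45, edgeR adjusted p = 0.0467), and old queen O-469-F, at 2514 CPM, was far above the other old queens.

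Among genes of amino acid metabolism 5 of 9 tested contigs rose, against 12.2% of all named ant hits, and none fell. All 9 had positive values, with a median of 2.0. Besides henna, the 4 called contigs were all named S-adenosylmethionine synthase, the enzyme that makes the methyl donor of the cell from methionine and ATP. The most abundant (TR67145c2_g3_i3) ran from 357 to 1841 CPM in old fat bodies (median 828) and from 123 to 589 CPM in young ones (median 249), a difference of 1.76 ± 0.37 on the log2 scale (SE; edgeR adjusted p = 0.0441). Its young and old ranges overlapped, with 6 of 8 old libraries above the highest young one. A pair of further contigs of the same component rose by 2.04 and 1.37 (edgeR adjusted p = 0.0271 and 0.045). A contig of another component rose by 2.24 (edgeR adjusted p = 0.0499). The summed component of the first 3 differed by 1.59 (edgeR adjusted p = 0.0116). Methylmalonate-semialdehyde dehydrogenase of the mitochondrion (TR69813c1_g2_i1), an enzyme of valine breakdown, rose from 125 ± 32.5 to 285 ± 83.7 CPM (1.19 ± 0.21, edgeR adjusted p = 0.0228) with no overlap.

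Methyltransferases that use this donor did not move as a group. Protein-lysine N-methyltransferase mettl10 rose (1.76 ± 0.31, edgeR adjusted p = 0.0228). Protein arginine N-methyltransferase 1 modifies histones and RNA-binding proteins. Its rarer contig fell from 7.26 ± 1.99 to 3.25 ± 0.773 CPM (-1.16 ± 0.23, edgeR adjusted p = 0.0348). Its more abundant contig, of another component, averaged 48.6 (old) and 69.3 CPM (young). That difference of -0.51 was not called (edgeR adjusted p = 0.11). The tRNA (cytosine(38)-C(5))-methyltransferase (-0.59 ± 0.12, edgeR adjusted p = 0.0308) and the rRNA methyltransferase NSUN4 (-0.74 ± 0.14, edgeR adjusted p = 0.0252) also fell.

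Purine nucleoside phosphorylase, which splits nucleosides so that purine bases can be salvaged or degraded, led the list with the highest median. Of 5 tested contigs of nucleotide metabolism 3 rose, against 12.2% of all named ant hits, and none fell. All 3 are contigs of a single component. The most abundant (TR66855c0_g1_i1) ran from 54.9 to 244 CPM in old fat bodies (median 101) and from 0.487 to 31.9 CPM in young ones (median 4.47). Young queen Y-333-F was the highest of the young, and no old queen lay below it. Its difference was 3.92 ± 0.81 (edgeR adjusted p = 0.042), and the component as a whole gave 3.83 (edgeR adjusted p = 0.0139). The call on this contig held in 3 of the 16 fits that left out a queen. Other calls near the threshold held in fewer, such as KIF3A in 2, and beta-galactosidase-like and small ubiquitin-related modifier 3 in 1 each.

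All 11 tested contigs of sugar metabolism had positive values, with a median of 1.5. Of the 11, 2 were called higher, against 12.2% of all named ant hits. The facilitated trehalose transporter Tret1-2 homolog (TR66992c0_g1_i2), of the family that moves the main blood sugar of insects out of the fat body, ran from 97.1 to 972 CPM in old fat bodies (median 151) and from 2.32 to 67.8 CPM in young ones (median 11.8). The groups were separate, with a difference of 3.73 ± 0.78 on the log2 scale (SE; edgeR adjusted p = 0.0423). Beta-galactosidase-like rose from 4.05 ± 2.52 to 20.6 ± 15.1 CPM (2.34 ± 0.50, edgeR adjusted p = 0.0446), with 7 of 8 old queens above the young range. Phosphoenolpyruvate carboxykinase, an enzyme of glucose synthesis, had a difference of 2.04 that was not called (edgeR adjusted p = 0.0747).

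Membrane transporters formed the list with the most calls in a single direction, 10 of 28 tested contigs higher and none lower. The share called higher among all named ant hits was 12.2%. The 28 contigs carried 21 different names, and a pair of the calls was choline transporter-like protein 1. Of the 28 values 22 were positive, and the median was 1.45. The largest difference of all named contigs belonged to an organic cation transporter protein-like contig (TR72669c0_g1_i4). It ran from 3.69 to 32.1 CPM in old fat bodies (median 9.24) and from 0 to 0.986 CPM in young ones (median 0.273), with a difference of 5.55 ± 0.96 on the log2 scale (SE; edgeR adjusted p = 0.0225). It was almost absent from young fat bodies except young queen Y-651-F, which was still below every old queen. A glucose transporter of solute carrier family 2, member 1-like (TR67953c0_g2_i1), ran from 35.5 to 566 CPM in old fat bodies (median 203) and from 4.31 to 84.3 CPM in young ones (median 15.2). Old queen O-426-F was the only old library within the young range, and the difference was 3.47 ± 0.66 (edgeR adjusted p = 0.0271).

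Several carriers of ions rose as well. The sodium-driven chloride bicarbonate exchanger, which regulates cell pH, went from 5.54 ± 3.46 to 24.4 ± 8.83 CPM (2.14 ± 0.39, edgeR adjusted p = 0.0235), and electroneutral sodium bicarbonate exchanger 1 from 9.96 ± 6.07 to 36.3 ± 15.7 CPM (1.87 ± 0.38, edgeR adjusted p = 0.0403). Zinc transporter 2-like (1.48 ± 0.27, edgeR adjusted p = 0.0237) and a probable zinc transporter protein (1.0 ± 0.21, edgeR adjusted p = 0.041) were higher too. In the latter pair 7 and 5 of the 8 old queens lay above the highest young one. The ABC transporter contig ABCG1-like, of a family that exports sterols in mammals, rose from 56.7 ± 23.7 to 179 ± 64 CPM (1.66 ± 0.29, edgeR adjusted p = 0.0228). A hyperpolarization-activated channel of the HCN2 type rose (1.77 ± 0.33, edgeR adjusted p = 0.0252) with no overlap.

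**Figure D3:**
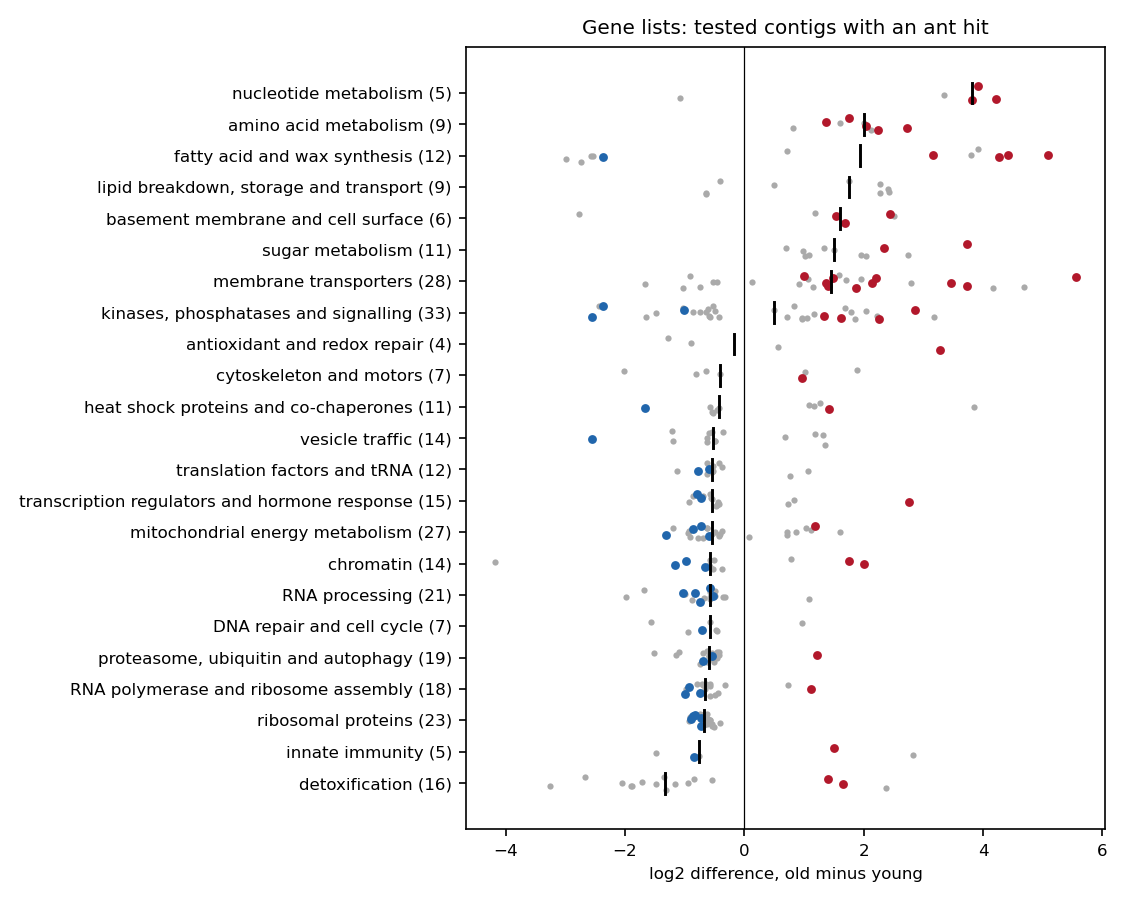
Log2 differences, old minus young, of the tested named ant hits in each of 23 gene lists, with the number of contigs in brackets. Red and blue points were called higher and lower in old queens, grey points were not called, and black bars are medians. Transporters and metabolic lists lie mainly above 0, and ribosomal, proteasome and RNA lists lie mainly below 0, with only the ribosomal list in a narrow band. Named contigs were selected on age by the authors.

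Genes of the basement membrane and cell surface gave 3 calls among 6 tested contigs, all higher, against 12.2% higher among all named ant hits. The median of the 6 was 1.61. Beside laminin beta-1 and semaphorin-5B, laminin subunit alpha (TR75111c1_g1_i1) ran from 219 to 719 CPM in old fat bodies (median 446) and from 94.5 to 262 CPM in young ones (median 141). Its groups overlapped in a single old queen, with a difference of 1.54 ± 0.28 on the log2 scale (SE; edgeR adjusted p = 0.0235). Laminin subunit gamma-1, the remaining chain of the trimer, had a difference of 1.18 and missed the threshold (edgeR adjusted p = 0.0525). A collagen alpha-1(IV) chain contig had a value of -2.77 that was not called (edgeR adjusted p = 0.0964). Dystroglycan-like, the receptor that anchors cells to laminin, was not in the list and rose from 360.4 ± 67.6 to 644 ± 142 CPM (0.84 ± 0.16, edgeR adjusted p = 0.0287) with no overlap. Tenascin-like, a matrix glycoprotein, rose by 2.40 (edgeR adjusted p = 0.0267), but its component as a whole differed by 0.67 (edgeR adjusted p = 0.1).

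Of 5 tested contigs of innate immunity 1 was higher, 1 was lower and 3 were not called. The shares over all named ant hits were 12.2% higher and 8.46% lower. Beta-1,3-glucan-binding protein-like (TR74976c5_g1_i1), a secreted protein that recognises cell walls of fungi and bacteria, ran from 667 to 3669.6 CPM in old fat bodies (median 1813) and from 326 to 879 CPM in young ones (median 748). All old queens but O-469-F were above the young range, with a difference of 1.51 ± 0.28 on the log2 scale (SE; edgeR adjusted p = 0.0255). Pellino (TR67386c0_g2_i2), a ubiquitin ligase of Toll signalling, ran from 32.5 to 48.7 CPM in old fat bodies (median 34.9) and from 52.5 to 81.8 CPM in young ones (median 64.7). No old queen reached the young range, and the contig differed by -0.84 ± 0.13 (edgeR adjusted p = 0.0103). It held 8.06% of its component, whose sum differed by -0.31 (edgeR adjusted p = 0.164). Kunitz-type protease inhibitors, small secreted blockers of serine proteases, rose in 3 contigs of a single component, the most abundant from 168 ± 95.4 to 533 ± 192 CPM (1.67 ± 0.37, edgeR adjusted p = 0.0499). Leukotriene A-4 hydrolase, an enzyme with peptidase activity, rose from 5.09 ± 1.5 to 11.9 ± 1.68 CPM (1.23 ± 0.21, edgeR adjusted p = 0.0199) with no overlap.

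Of the contigs that fell, Rab-32 (TR64671c0_g1_i2), a small GTPase that directs traffic to lysosome-related organelles, had the smallest p. It ran from 4.4 to 12.1 CPM in old fat bodies (median 6.38) and from 14.3 to 71.1 CPM in young ones (median 45.6). The lowest young queen, Y-333-F, was above the highest old queen, with a difference of -2.55 ± 0.33 on the log2 scale (SE; edgeR adjusted p = 0.00339). The kinase mos (TR57811c1_g1_i1), known from oocyte meiosis as an activator of the MAP kinase cascade, ran from 6.47 to 12 CPM in old fat bodies (median 8.65) and from 14.9 to 20.3 CPM in young ones (median 18.1). The groups were separate, with a difference of -1.01 ± 0.16 on the log2 scale (SE; edgeR adjusted p = 0.0103). A CC2D2A-like contig, named after a protein of the ciliary base, fell at a low level from 4.05 ± 1.7 to 0.649 ± 0.492 CPM (-2.64 ± 0.43, edgeR adjusted p = 0.0167).

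N-alpha-acetyltransferase 50 acetylates the starts of proteins, and its contig (TR1764c0_g1_i1) ran from 19.7 to 30.8 CPM in old fat bodies (median 26.4) and from 38.9 to 63 CPM in young ones (median 44.3). Its difference was -0.84 ± 0.14 (edgeR adjusted p = 0.015). Lin-54 homolog, of the DREAM complex that controls cell cycle genes, ran from 35.2 to 58.1 CPM in old fat bodies (median 42.2) and from 62.2 to 97 CPM in young ones (median 75.4). Its difference was -0.79 ± 0.13 (edgeR adjusted p = 0.0185), and neither contig showed overlap between groups. Krueppel homolog 1-like (TR56466c0_g1_i1), the transcription factor through which juvenile hormone acts, ran from 108 to 161 CPM in old fat bodies (median 122) and from 172 to 290.4 CPM in young ones (median 192). All 8 old queens lay below the lowest young queen, with a difference of -0.72 ± 0.13 on the log2 scale (SE; edgeR adjusted p = 0.0252). Among 15 tested transcription regulators 1 rose, the myb-like contig, and 2 fell, lin-54 and Krueppel homolog 1. The shares over all named ant hits were 12.2% higher and 8.46% lower.

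Ribosomal proteins lay in a narrow band. All 23 tested contigs had negative values, from -0.92 to -0.41 with a median of -0.67. All named ant hits had 323 negative values of 532 and a median of -0.49. The test was passed by 5 of the 23 ribosomal contigs, against 8.46% called lower among all named ant hits. Of these 5, 60S acidic ribosomal protein P1 (TR63144c0_g1_i1) ran from 371 to 722 CPM in old fat bodies (median 510.1) and from 706 to 1099.9 CPM in young ones (median 825). A single old queen reached the young range, with a difference of -0.73 ± 0.15 on the log2 scale (SE; edgeR adjusted p = 0.042). 60S ribosomal protein L10a fell from 452 ± 83 to 253 ± 50.2 CPM (-0.83 ± 0.16, edgeR adjusted p = 0.0267) with no overlap. L11-like fell in its contig (-0.90 ± 0.19, edgeR adjusted p = 0.0441) but not in its component (-0.30, edgeR adjusted p = 0.363). The other calls were the mitochondrial ribosomal proteins L39 (-0.72 ± 0.14, edgeR adjusted p = 0.0277) and L53 (-0.86 ± 0.18, edgeR adjusted p = 0.0397).

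In RNA polymerase and ribosome assembly 16 of 18 values were negative, 3 contigs fell and 1 rose, the polymerase I subunit described above. Shares over all named ant hits were 8.46% lower and 12.2% higher. The RNA polymerase II subunits RPB3 (-0.99 ± 0.21, edgeR adjusted p = 0.0437) and 16 kDa (-0.93 ± 0.18, edgeR adjusted p = 0.0308) fell, the former from 34.3 ± 6.63 to 17.3 ± 5.84 CPM. Ribosome maturation protein SBDS, which completes the large subunit, fell from 90.8 ± 14.8 to 53.5 ± 10.4 CPM (-0.76 ± 0.15, edgeR adjusted p = 0.0271) with no overlap. Of 12 translation and tRNA contigs 2 fell, against 8.46% of all named ant hits. Initiation factor 4A-III, a helicase of the exon junction complex, was the clearer of the pair. It ran from 40.6 to 56.2 CPM in old fat bodies (median 46.5) and from 61.1 to 105 CPM in young ones (median 71.8), with a difference of -0.77 ± 0.14 on the log2 scale (SE; edgeR adjusted p = 0.0235).

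In RNA processing 20 of 21 values were negative, and the median was -0.58, close to the -0.49 of all named ant hits. In this list 5 contigs fell, against 8.46% of all named ant hits, and none rose. The calls were a pair of contigs of the splicing factor U2af 38 kDa subunit (-0.52 ± 0.11, edgeR adjusted p = 0.0437) and (-0.75 ± 0.16, edgeR adjusted p = 0.045), squid-like (-1.02 ± 0.19, edgeR adjusted p = 0.0258), Rsf1 (-0.57 ± 0.11, edgeR adjusted p = 0.0286) and the helicase DDX28 (-0.82 ± 0.15, edgeR adjusted p = 0.0269), known in human cells for assembling mitochondrial ribosomes. The more abundant U2af contig ran from 30.9 to 38.4 CPM in old fat bodies (median 33.8) and from 41.6 to 57.6 CPM in young ones (median 48.5). Its groups were close to each other but did not overlap.

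In protein degradation 18 of 19 values were negative with a median of -0.59, and 2 contigs fell and 1 rose, so that 2 of 19 were called lower against 8.46% of all named ant hits. Proteasome maturation protein fell from 86.1 ± 20.1 to 53.1 ± 6.79 CPM (-0.70 ± 0.15, edgeR adjusted p = 0.0483) and small ubiquitin-related modifier 3 from 45.5 ± 5.61 to 31.3 ± 3.9 CPM (-0.54 ± 0.12, edgeR adjusted p = 0.0492). The ubiquitin ligase CBL-B, which ends signalling by receptor kinases, rose (1.21 ± 0.25, edgeR adjusted p = 0.041). Proteasome subunits beta type-6 and beta type-5 had values of -0.70 and -0.62 and just missed the threshold (edgeR adjusted p = 0.0504 for both).

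Mitochondrial contigs gave 4 lower and 1 higher among 27, against 8.46% lower and 12.2% higher among all named ant hits. Of the 27 values 19 were negative, against 323 of 532 for all named ant hits. The median was -0.55, near their -0.49. Beside L39 and L53, cytochrome c oxidase subunit 4, of the last complex of the respiratory chain, fell from 198 ± 25.3 to 132 ± 22.2 CPM (-0.59 ± 0.13, edgeR adjusted p = 0.0469). Calcium uptake protein 3, which gates calcium entry into mitochondria, fell from 19.4 ± 6.44 to 7.82 ± 1.86 CPM (-1.31 ± 0.23, edgeR adjusted p = 0.0228). Methylmalonate-semialdehyde dehydrogenase was the contig that rose.

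Of 14 chromatin contigs 3 fell and 2 rose, against 8.46% lower and 12.2% higher among all named ant hits. SDS3, of the Sin3 histone deacetylase complex, fell from 30.5 ± 5.66 to 15.5 ± 3.77 CPM (-0.97 ± 0.19, edgeR adjusted p = 0.0271). The rarer contig of histone H3.3 fell from 45.9 ± 8.48 to 29.1 ± 2.63 CPM (-0.66 ± 0.13, edgeR adjusted p = 0.0348). The more abundant H3.3 contig averaged 59.8 (old) and 88.8 CPM (young) and was not called (-0.57, edgeR adjusted p = 0.109). Their summed component differed by -0.63 (edgeR adjusted p = 0.0128). Lysine-specific histone demethylase 1 homolog 3-like was higher, at 656 ± 367 against 164 ± 97 CPM (2.0 ± 0.43, edgeR adjusted p = 0.0469). Of 7 contigs for DNA repair and the cell cycle 1 fell, against 8.46% of all named ant hits. It was DNA polymerase epsilon subunit 3 (-0.71 ± 0.15, edgeR adjusted p = 0.045).

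The list of heat shock proteins and co-chaperones was a match on words, so its members need not all be chaperones. It had 1 of 11 higher and 1 lower, near the 12.2% higher and 8.46% lower of all named ant hits. Heat shock protein beta-1, a small chaperone, fell from 50.1 ± 23.3 to 15.8 ± 6.79 CPM (-1.66 ± 0.29, edgeR adjusted p = 0.0228), and heat shock protein 67B2-like rose (1.42 ± 0.31, edgeR adjusted p = 0.0495). In both, the component sum was not called (-0.78 and 0.85, edgeR adjusted p = 0.139 and 0.0819). Detoxification contigs had 13 of 16 negative values and a median of -1.33. The 2 of 16 that were called both rose, against 12.2% higher among all named ant hits. They were the ABCG1-like transporter and cytochrome P450 6k1-like (1.41 ± 0.31, edgeR adjusted p = 0.0499). The cytochrome P450 4c3-like contig had the lowest value, -3.25, which was not called (edgeR adjusted p = 0.0557).

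Antioxidant genes were few. Peptide methionine sulfoxide reductase, a repair enzyme of oxidised proteins, was the only call of 4 tested contigs, against 12.2% higher among all named ant hits. It ran from 31.3 to 381 CPM in old fat bodies (median 113) and from 3.49 to 38.8 CPM in young ones (median 9.24), with a difference of 3.28 ± 0.65 on the log2 scale (SE; edgeR adjusted p = 0.0325). All old queens but 1 lay above the young range. Oxidation resistance protein 1 rose modestly from 84.8 ± 20.8 to 149 ± 27.8 CPM (0.81 ± 0.16, edgeR adjusted p = 0.0355). Catalase and copper-zinc superoxide dismutase were described only for contigs whose hits lie outside ants and that were too rare to test. The more abundant catalase contig stood at 0.919 ± 0.8 CPM in old against 0.0593 ± 0.0848 CPM in young fat bodies, and the other had counts in old queens alone, up to 0.233 CPM. The dismutase contigs stood at 0.597 ± 0.578 and 0.202 ± 0.268 CPM in old against 0.0708 ± 0.0742 and 0.0658 ± 0.0595 CPM in young ones. Transferrin (TR74825c9_g10_i1) ran from 679 to 5884 CPM in old fat bodies (median 3371) and from 39.97 to 1905 CPM in young ones (median 182). Its difference of 2.83 ± 0.72 was not called (edgeR adjusted p = 0.0813), and young queen Y-361-F lay among the old queens. The summed component of 16 contigs was called, with a difference of 2.65 (edgeR adjusted p = 0.0218). A rare transferrin-like contig, below the count filter, stood at 1.15 ± 0.454 CPM in old against 0.0521 ± 0.0706 CPM in young queens.

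In signalling 4 of 33 contigs rose and 3 fell, near the 12.2% higher and 8.46% lower of all named ant hits. The calls beside those already named were tyrosine-protein phosphatase 99A (1.33 ± 0.28, edgeR adjusted p = 0.0459), a histidine kinase B-like contig (2.26 ± 0.44, edgeR adjusted p = 0.0317) and a TRPV5-type cation channel (-2.36 ± 0.46, edgeR adjusted p = 0.0315), the last of them lower. Vesicle traffic held a single call among 14, the lower Rab-32, which is also counted among the signalling calls. The cytoskeleton held a single call among 7, the motor KIF3A, which was higher (0.97 ± 0.20, edgeR adjusted p = 0.0441). These counts, too, stand beside 12.2% higher and 8.46% lower among all named ant hits. Growth/differentiation factor 11, a ligand of the TGF-beta family, rose from 7.7 ± 3.22 to 20.1 ± 8.3 CPM (1.38 ± 0.29, edgeR adjusted p = 0.0405).

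**Figure D4:**
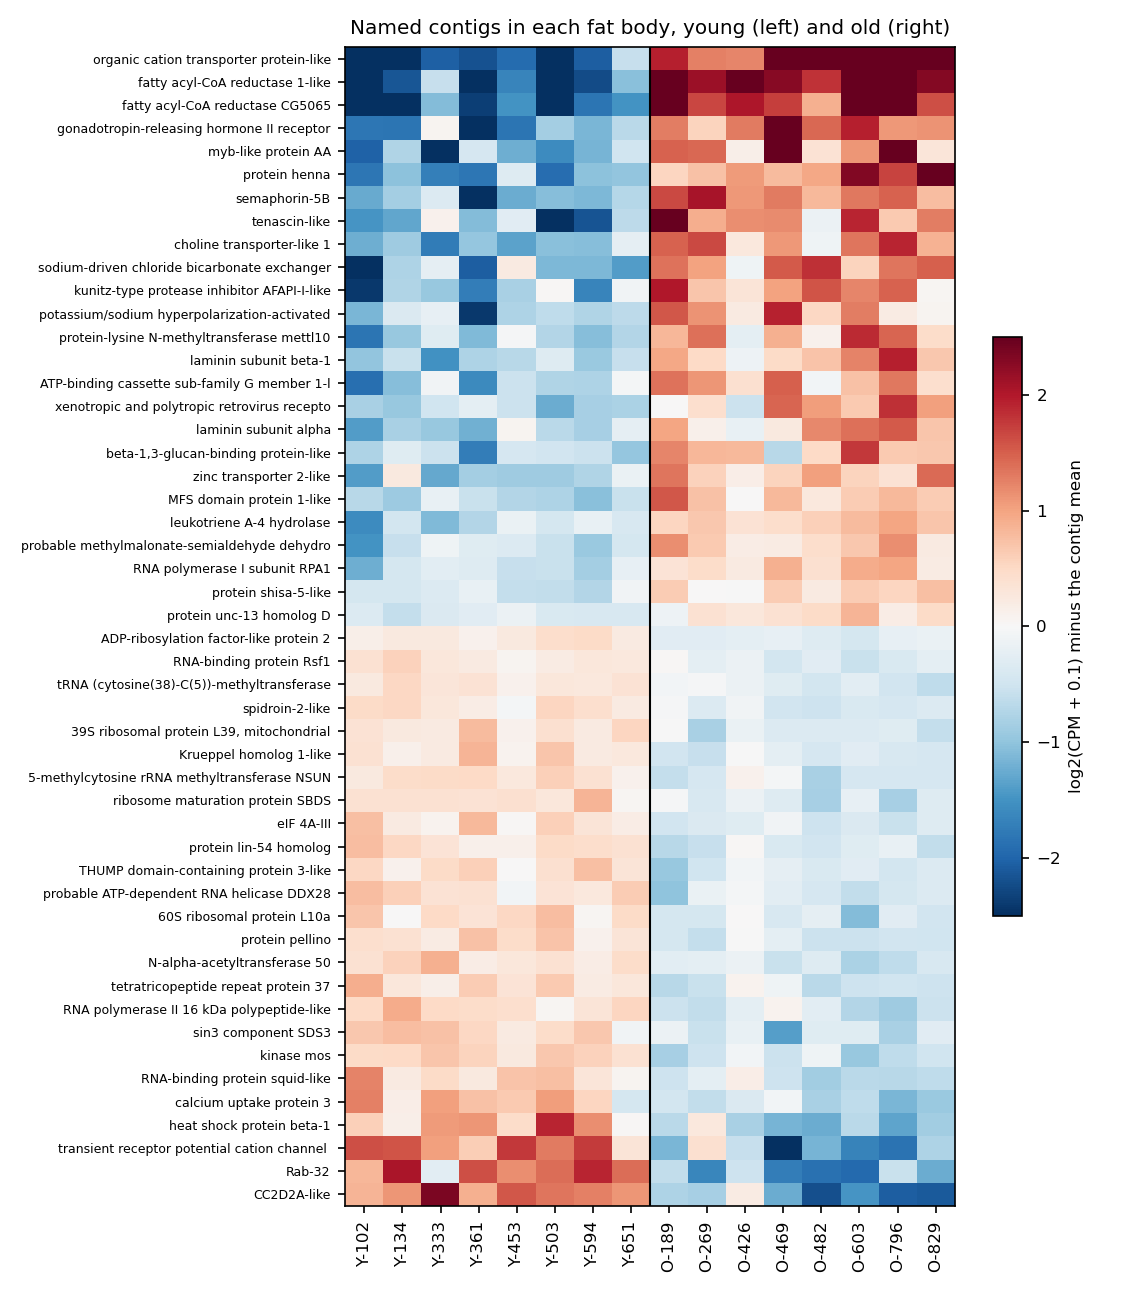
Log2(CPM + 0.1) minus the contig mean in each of 16 fat bodies for the 25 named contigs with the smallest p that were higher and the 25 that were lower in old queens, sorted by difference. Red is above and blue below the contig mean. Contigs that rose span a wider colour range than those that fell, and old queen O-426-F is the palest old library in many of them.

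Per kilobase of contig, the most abundant named calls in young queens were ribosomal. Protein P1 stood at 918 CPM per kilobase in young and 552 in old fat bodies, and L10a at 478 and 268. 15-hydroxyprostaglandin dehydrogenase stood at a mean of 767 in old queens, raised by the 2514 CPM of old queen O-469-F, against 181 in young ones, and beta-1,3-glucan-binding protein-like stood at 303 against 106.

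Some markers of other cell types that a dissected fat body can hold also differed with age. Croquemort-like, a scavenger receptor of haemocytes, rose from 115 ± 41.4 to 243 ± 54.9 CPM (1.08 ± 0.22, edgeR adjusted p = 0.0397). The gut and Malpighian tubule list was a match on words such as maltase and aminopeptidase. It held methionine aminopeptidase 1 and a lysosomal alpha-glucosidase-like contig, which do not mark gut, and maltase 2-like, also counted under sugar metabolism. Its 10 described contigs summed to 376 to 1976 CPM in old against 205.5 to 605 CPM in young queens, though none of the 7 tested was called. That sum is therefore not a measure of gut tissue. Neuroligin-1-like, the single ant hit in the neuron list, fell from 129 ± 16.5 to 82.4 ± 18 CPM (-0.65 ± 0.14, edgeR adjusted p = 0.0499), while complexin had the higher mean in old fat bodies, as given above. Muscle markers summed to 0.849 to 5.50 CPM in old against 1.67 to 21.2 CPM in young queens, and venom dipeptidyl peptidase 4 rose (1.14 ± 0.22, edgeR adjusted p = 0.0287). No germline marker was described. The part of these cell types in the differences was not tested.

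Old fat bodies concentrated more of their counts in few contigs. The 100 most abundant contigs took 52.2% ± 3.85 of the counts in old and 42.4% ± 4.69 in young queens, from 45.1% to 56.5% and from 37.1% to 50.6%. The difference of 9.81 percentage points had p = 0.0014 in an exact two-sided permutation test over the 12870 splits of 16 libraries. In old queens 5 of 8 libraries lay above the highest young queen, Y-651-F, and all 8 above the young median. The 10 most abundant contigs gave 34% and 23.0% (exact permutation p = 0.00186).

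The leading component, 5 undescribed contigs, took 15.2% ± 6.65 of the counts in old and 7.68% ± 5.84 in young queens. Its ranges, 6.02% to 22.5% and 1.44% to 17.2%, overlapped widely, and its summed difference of 1.23 was not called (edgeR adjusted p = 0.232). Of the 100 contigs, 2 were called. Scaling by total counts alone, which makes no correction for this share, moved the median of all contigs to -0.29 and gave 153 higher and 825 lower calls, 15.6% higher against 69.8% with TMM. Under that scaling all 23 ribosomal protein contigs were called lower, while their median relative to all contigs changed little (-0.93 against -0.29, compared with -0.67 against 0.01). Apart from 1 transporter and 1 mitochondrial contig, the numbers of higher and lower values in the 23 lists stayed as given under total-count and RLE scaling. The calls did not stay as given under total counts. Transporters then had 15 higher and 5 lower calls, detoxification 2 and 7, and protein degradation 0 and 18.

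**Figure D5:**
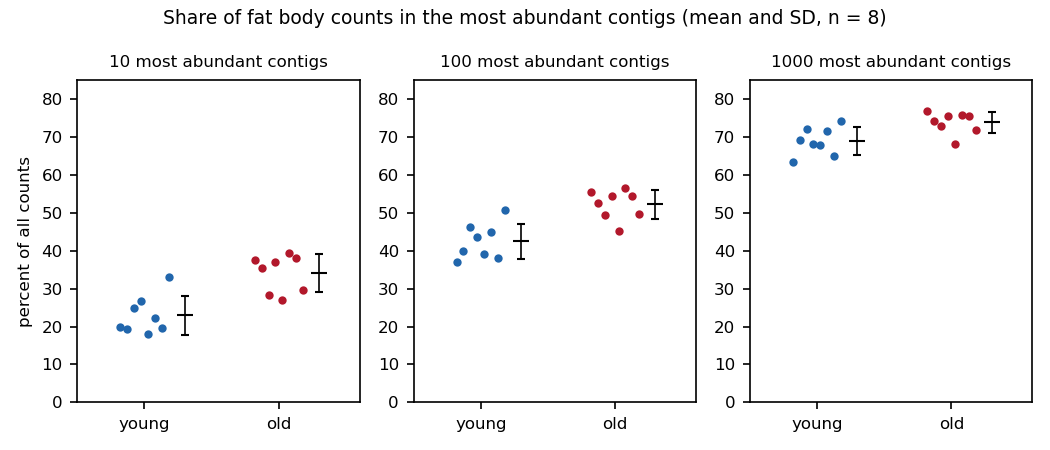
Percent of all counts in the 10, 100 and 1000 most abundant contigs of the fat body, for 8 young (blue) and 8 old (red) queens, with mean and SD in black. Old queens lie mostly higher in each panel, and the groups overlap, with young queen Y-651-F the highest of the young and old queen O-482-F the lowest of the old in all panels.

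Whether these age differences are shared by the brain of the same queens was tested as the difference of the age differences. Over 48253 contigs, 109 were called (0.226%) without a queen term and 2 (0.00414%) with the queen as a block. Of the 110 named contigs called in the fat body, 29 differed between tissues without the block and 1 with it, counts that lean on the choice of these contigs by their fat body difference. The one is Rab-32, whose age difference was -2.55 in the fat body and -0.42 in the brain, with a tissue difference of -2.13 (edgeR adjusted p = 0.021) or -2.09 with the queen block (edgeR adjusted p = 0.0366). The other contig of the blocked fit matches an ant protein that has no name.

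That unnamed contig (TR52438c0_g1_i1, matching uncharacterized protein LOC108756522) was also the call with the smallest p in the fat body. It ran from 147 to 226 CPM in old fat bodies (median 176) and from 17.9 to 49.9 CPM in young ones (median 30.6). Old and young queens were far apart relative to the spread of either group, with a difference of 2.56 ± 0.20 on the log2 scale (SE; edgeR adjusted p = 2.71e-05), and in the brain its age difference was 0.08. A further unnamed contig (TR48006c0_g1_i1, matching uncharacterized protein LOC105147137) rose from 5.49 ± 2.74 to 58.1 ± 14.6 CPM (3.40 ± 0.36, edgeR adjusted p = 0.000516). Of all calls, 22 matched an ant protein that has no name, 19 higher and 3 lower, and 45 had no description, 41 higher and 4 lower.

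On the other side, an undescribed contig (TR73546c1_g1_i8) had counts in 2 old fat bodies, up to 0.139 CPM, and ran from 0.467 to 442 CPM in the young, where queen Y-361-F stood far above the others. Its component as a whole differed by -2.96 (edgeR adjusted p = 0.0172). The contig matching uncharacterized protein LOC105456338 fell from 18 ± 8.45 to 4.18 ± 2.63 CPM (-2.10 ± 0.39, edgeR adjusted p = 0.0245).

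The authors' deposited table of age in the fat body lists 1597 contigs, 1062 higher and 535 lower in old queens. Of these, 877 were tested here, and all 877 had the same direction. The lists shared 169 contigs, 10.6% of the authors' deposited table and 94.4% of the calls here. The remaining 720 had too few counts for the test used here, and 605 of them are higher in old queens in the authors' deposited table.

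Among those rare contigs higher in old queens, 197 had hits outside ants, 84 had ant hits and 324 had no description. Between 84 and 196 of the first set had a count in each old fat body and between 5 and 47 in each young one. Their counts summed to 11.1 to 96.0 CPM in old against 0.560 to 4.62 CPM in young queens, those of the ant hits to 26.7 to 44.9 and 1.57 to 4.01 CPM, and those of the undescribed contigs to 74.2 to 144 and 8.78 to 17.0 CPM. Since the authors selected these contigs as higher in old queens in the same libraries, the gap between the groups is set by the selection. Among hits outside ants, the species most often named was the predatory mite Metaseiulus occidentalis, with 24 contigs, followed by the oyster Crassostrea gigas with 11. Where these transcripts come from was not tested. Of the results above, the catalase, superoxide dismutase and transferrin-like levels come from contigs too rare to test.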

How the data were processed

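RNA libraries of 16 fat bodies were compared. The authors deposited whole-number read counts for 228763 contigs, taken as unscaled because they are whole numbers and library totals differ. Among the tools in the submitters' processing notes are RSEM 1.3.0, an estimator of counts, the aligners Bowtie and Bowtie2, Trimmomatic 0.36 and DESeq2 1.2.10, with no role given. Deposited values may thus be rounded estimates divided among similar contigs. For the assembly, no tool is given in the sources used here. The authors' deposited age tables hold log2 fold changes and adjusted p-values with best hits, the only source of names. A hit counted as ant by the genus of its species.

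Age was tested with edgeR 4.0.16 in R 4.3.3 by the quasi-likelihood test, with TMM scaling, filterByExpr (minimum count 10, minimum total 15), Benjamini-Hochberg adjustment and a threshold of 0.05, on 27664 contigs. The test was run on simulated data first. Depth was 20658985 to 31200003 counts per library. Members, lists and tests were chosen with earlier results of these data known, and word patterns that matched inside unrelated words were corrected after the values had been seen.

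Named contigs were, among calls with a named ant hit reaching 1 CPM, the 25 with the smallest p per direction, the 10 most abundant and up to 4 per list and direction. Transferrin, catalase and superoxide dismutase contigs were added whatever their test, and at most 2 contigs without a name per direction. Other called contigs that appear (growth/differentiation factor 11, oxidation resistance protein 1, electroneutral sodium bicarbonate exchanger 1, the glucose transporter, the probable zinc transporter, FAM13A, TMEM86A, HIV Tat-specific factor 1 homolog, the GRAM domain 2-like and 3-like contigs, L11-like and some kunitz, U2af and S-adenosylmethionine synthase contigs) were named after their values were seen, as were list members that missed the threshold.

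Per the labels, a number marks 1 queen in both tissues. Brain and fat body deviations from group means correlated at 0.329 to 0.401, against at most 0.0742 for different queens. Alternatives were RLE scaling, total counts, other count filters, DESeq2 1.42.0, limma 3.58.1 with voom, robust dispersion, component sums, a fit on all 32 libraries, each queen left out and the queen block for the tissue comparison.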

Additional observations from a re-analysis of the deposited data

Results flagged for a closer look

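In 24 of 232 groups of values examined, 8 old and 16 young, a queen stood apart from the others of its group by the gap test used for small groups. For normally distributed values, chance alone passes that test in about 1 group of 20. It was run on CPM without logs, and some contigs share a component, so 24 of 232 cannot be set against that rate. Young queen Y-333-F accounted for 5 of the 24, old queen O-469-F and young queen Y-651-F for 3 each. All values here are CPM. In old queens the values standing apart were 180.2 for the major facilitator superfamily domain-containing protein 1-like contig and 206 for kunitz-type protease inhibitor (queen O-189-F), 31.6 for heat shock protein beta-1 and 2.87 for the TRPV5-type channel (queen O-269-F), and 1.73 for CC2D2A-like (queen O-426-F). In old queen O-469-F they were 92.5 for gonadotropin-releasing hormone II receptor, 2514 for 15-hydroxyprostaglandin dehydrogenase and 231 for protein FAM13A.

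Young queen Y-333-F stood high for CC2D2A-like (8.01), fatty acid synthase (0.684), purine nucleoside phosphorylase in a pair of contigs (31.9 and 10.8) and lysoplasmalogenase-like protein TMEM86A (63.9). Young queen Y-651-F stood high for choline transporter-like protein 1 (32.1), the organic cation transporter (0.986) and abhydrolase domain-containing protein 2 (383). Young queen Y-453-F stood high for henna (31.7) and electroneutral sodium bicarbonate exchanger 1 (23.0), and young queen Y-594-F for SBDS (124) and HIV Tat-specific factor 1 homolog (48.1). Young queen Y-361-F stood high for transferrin (1905) and the undescribed contig (442), queen Y-503-F for heat shock protein beta-1 (98.9), and queen Y-102-F for the glucose transporter (84.3). In each of these cases the queen was the highest of its group.

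For 29 named contigs the age difference of the fat body differed from that of the brain without a queen term. The tissue difference is the log2 age difference in the fat body minus that in the brain, and these contigs were chosen on the former. It was 3.44 or more for purine nucleoside phosphorylase (4.96, 4.53 and 4.45), the GRAM domain-containing proteins 2-like and 3-like (3.83 and 3.67), the trehalose transporter (3.58) and the glucose transporter (3.44). It was 2.74 for myb-like protein AA, 2.41 for henna, 2.35, 1.90, 1.87 and 1.49 for S-adenosylmethionine synthase, 2.21 for histidine kinase B-like, 2.20 for semaphorin-5B, 2.12 for the sodium-driven chloride bicarbonate exchanger, 2.05 for ABCG1-like and 2.03 for choline transporter-like protein 1. It was 1.94 for abhydrolase domain-containing protein 2, 1.66 for mettl10, 1.56 for the retrovirus receptor-like contig, 1.43 for the major facilitator contig, 1.3 for FAM13A, 1.15 for leukotriene A-4 hydrolase, 1.11 for RPA1, 1.10 for methylmalonate-semialdehyde dehydrogenase and 0.83 for oxidation resistance protein 1. It was negative for mos (-0.92) and Rab-32 (-2.13), which was called with the queen block as well.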

How the results depend on the processing

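The number of calls, 179 with 125 higher and 54 lower, depended on the tool and the filter. It was 978 with 825 lower under total counts, 38 (33 higher, 5 lower) with no count filter, 295 (106 lower, the others higher) with the stricter filter of 50 counts in 8 libraries, and 366 (239 and 127) with limma-voom. DESeq2 gave 1234 (898 and 336), and after the same filter 1470 (813 and 657). Component sums gave 894 (448 and 446) and the fit on all 32 libraries 2135 (1408 and 727). Leaving out a queen gave 40 to 311 calls, 32 to 206 higher and 8 to 105 lower. RLE scaling (173) and robust dispersion (170) stayed close to 179. All 179 were among the calls of both DESeq2 runs.

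Of the 110 named contigs called, none reversed under any of these settings. They remained called in 110 under DESeq2, 106 under RLE, 105 under voom and under robust dispersion, 103 under component sums and over all 32 libraries, 99 under total counts, 19 with no filter, all 107 that passed the stricter filter, and 22 to 107 with a queen left out. The causes of the lost calls were not tested. The share of counts in the 100 most abundant contigs kept its direction and its side of the threshold with 10 contigs (11.1 percentage points), with 1000 contigs (4.94) and without each queen (9.04 to 11.0).

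With the queen as a block, 2 contigs had an age difference that differed between tissues, against 109 without it. The blocked fit also estimated a term for each queen and its own dispersion, and the cause of the drop was not tested. Old and young queens share no number, so no paired test of age was possible. The p-values cover the spread between these 16 queens. Names cover only contigs the authors selected, and contigs too rare for the count filter were not tested.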
